A study of Mus musculus with 64 samples.

Results

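Interferons and interleukin-10 act on microglia through a small set of receptor chains and kinases. Here 9 of these genes were followed in retinal microglia of mice given adeno-associated virus (AAV) into the vitreous. They were chosen by symbol: the interferon-gamma receptor chains *Ifngr1* and *Ifngr2*, the type I interferon receptor chains *Ifnar1* and *Ifnar2*, the interleukin-10 receptor chains *Il10ra* and *Il10rb*, and the Janus kinases *Jak1*, *Jak2* and *Tyk2*. All 9 were among the 25239 genes of the count table and among the 13584 genes that passed the filter on low counts. Libraries were made from 600 microglia of 1 retina, sorted as tdTomato-bright live cells from *Cx3cr1CreER:R26-tdTomato* +/- mice of C57BL/6J background, so every group carried the same alleles and had received tamoxifen, and the *Cx3cr1* promoter drove the Cre that marked the cells. Naive eyes were compared with eyes taken at day 12 or day 28 after 1E10 genome copies of an AAV2 with no transgene, in females and males aged 3, 9 and 18 months. Per the study's methods, this vector also held an inhibitory sequence (io2) against TLR9, a sensor of viral DNA. The naive eyes had no injection, so in these libraries the virus and the injection cannot be told apart. The paper also had eyes injected with PBS, where it reports that its microglial marker changes were absent, but no such eye is among the libraries. Of 64 libraries 62 were used, 19 naive, 22 at day 12 and 21 at day 28, with 2 to 4 in each of the 18 groups of age, sex and day.

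Each of these receptors is a pair of chains, and neither chain has kinase activity of its own. Interferon-gamma is bound by IFNGR1, which carries JAK1, and signalling needs IFNGR2, which brings JAK2. Type I interferons are bound by IFNAR2 with JAK1 and IFNAR1 with TYK2, and interleukin-10 is bound by IL-10RA with JAK1, while IL-10RB with TYK2 is shared with the receptors for interleukin-22 and the lambda interferons. The kinases phosphorylate STAT proteins, which enter the nucleus and bind gamma-activated sequences (GAS) or, together with IRF9, interferon-stimulated response elements (ISRE). In the retina microglia are the resident macrophages, and interferon-gamma from T cells is a known inducer of antigen presentation in them.

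Library totals ran from 1468478 to 9836173 counts with a median of 4188992, and 3 counts, taken as the detection floor, equalled 2.12 CPM (counts scaled to a library size of 1E6) in the shallowest library and 0.361 CPM in the deepest. Totals and floors describe counting error only, since PCR copies were not marked. In 1 library labelled 18-month-old female at day 28 *Xist* was at 0 and Y-linked genes summed to 388 CPM, against its label, and it was left out. In 1 library labelled 9-month-old male at day 28 *Xist* stood at 255 CPM with no Y-linked count, and it was not analysed here. Replicate 4 of the 18-month-old males at day 28 has day 12 in another of its labels and was placed by its title. The 8 microglia markers were detected in every group, with a summed level of 26510 to 46210 CPM in naive libraries, and all 8 fell at day 12, when the sum ran from 8173 to 31740 CPM. The 7 T cell markers in the table were near 0 in most naive libraries (median sum 1.28 CPM, highest 156 CPM) and all 7 rose at day 12 (median sum 126 CPM, range 1.57 to 383 CPM), and 4 of 5 monocyte markers rose as well (median sum 12.1 CPM naive and 65.7 CPM at day 12). All 6 photoreceptor markers fell at day 12, with a median sum of 2018 CPM naive (578 to 3556) and 838 CPM at day 12 (447 to 3022). Of 5 Müller glia markers 2 rose and 2 fell, and 2 of 4 endothelial markers tested rose (median sum 16.1 CPM naive and 23.6 CPM at day 12). Fewer cells of a type and less RNA per cell cannot be told apart in these bulk libraries. The part of these shifts in the results below was not tested, except where a value is given.

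Per kilobase of exon, the naive order ran from a very abundant *Ifngr1* to scarce *Jak2* and *Tyk2*. The median level in the 19 naive libraries was 629 CPM per kb for *Ifngr1* (348 to 859), 149 for *Ifnar2* (103 to 178) and 114 for *Il10rb* (98.4 to 162). *Ifngr2* followed at 74.3 CPM per kb, then *Jak1* at 51.8 and *Il10ra* at 44.0. *Ifnar1* was far lower at 11.1 CPM per kb (4.60 to 25.7), and *Jak2* and *Tyk2* stood at 3.32 and 2.97. Within the libraries, *Ifnar2* was above *Il10rb* in 15 of 19, *Jak1* above *Il10ra* in 15 of 19 and *Jak2* above *Tyk2* in 10 of 19, so these neighbours were not separated beyond their spread, whereas each other neighbouring pair kept its order in 19 of 19. In both interferon receptors the gene of the JAK1-bound chain was the more abundant in naive microglia, *Ifngr1* over *Ifngr2* and *Ifnar2* over *Ifnar1*. Gene positions and exonic lengths are from GENCODE M21 on GRCm38, the assembly that mm10 names, and a level per kb does not correct for the isoforms in use.

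At day 12, averaged over age and sex, 6 of the 9 genes changed, where 36.0% of all genes tested did (edgeR adjusted p under 0.05). *Ifngr1* fell, while *Ifnar1*, *Jak2*, *Tyk2*, *Il10ra* and *Ifngr2* rose, beside 15.8% of all genes lower and 20.2% higher. *Ifnar2*, *Jak1* and *Il10rb* did not pass the test. The median log2 change was 0.21 over the 9 genes and 0.02 over all genes tested, and the median size of a change, ignoring direction, was 0.33 over the 9 genes and 0.41 over all genes. At day 28 *Ifngr1* and *Ifnar1* passed among the 9 by this test, where 15.5% of all genes did (6.52% lower, 9.0% higher), and DESeq2 also called *Ifnar2* (log2 fold change 0.19, adjusted p = 0.0445).

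**Figure D1:**
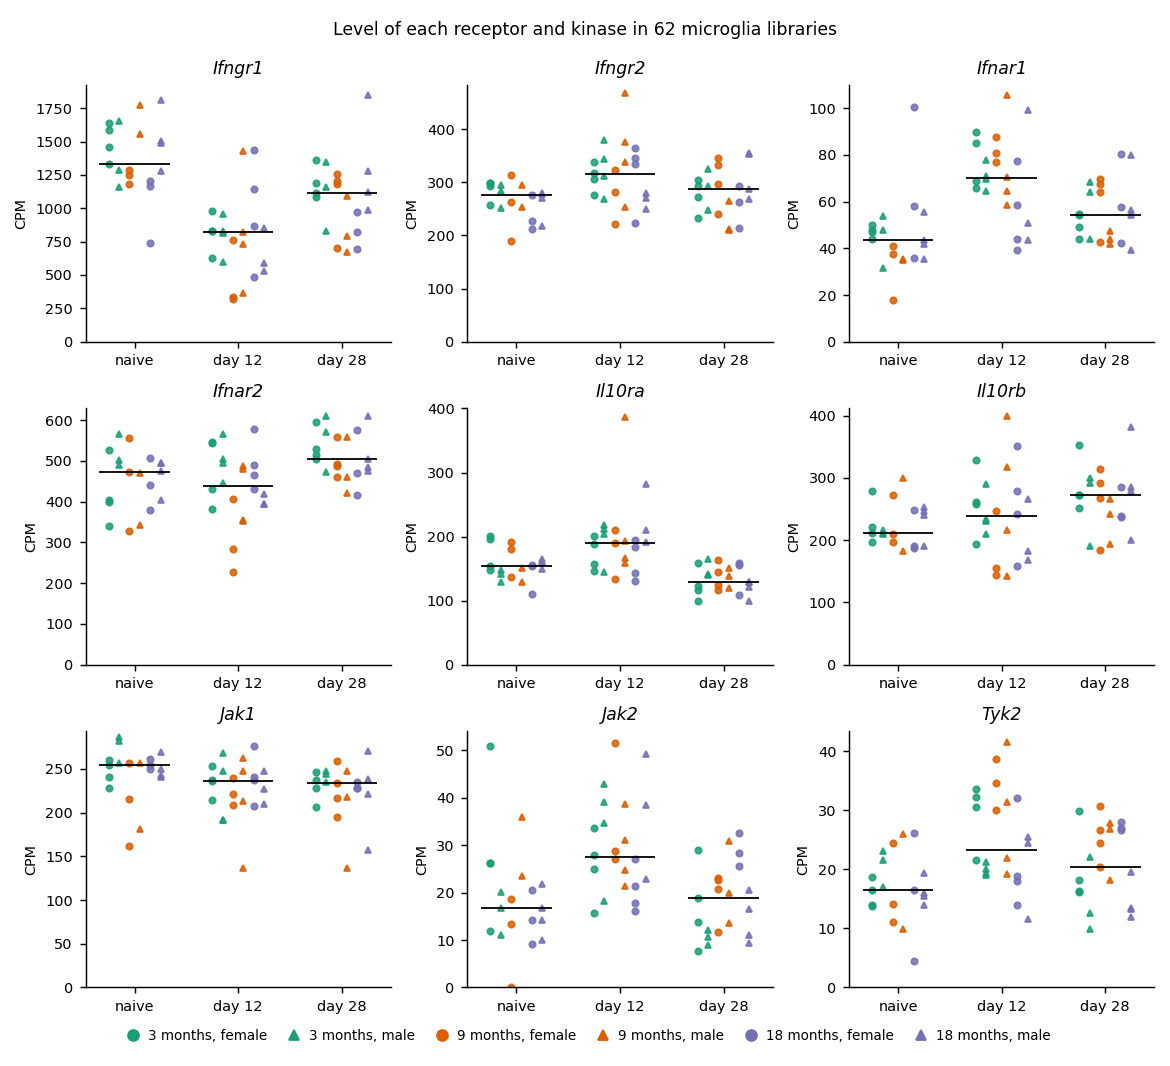
Level of each gene in CPM (linear axis from 0) in every library, naive, at day 12 and at day 28, with 1 point per library, colour for age, shape for sex and a black line at the median of each day. The day 12 median of *Ifngr1* is 819 CPM against 1328 CPM naive, and that of *Ifnar1* is 70.1 CPM against 43.4 CPM, while *Ifnar2* and *Jak1* stay near their naive medians.

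*Ifngr1* (ENSMUSG00000020009, chromosome 10, 19591949 to 19610229, plus strand), which encodes the chain that binds interferon-gamma, had the largest change of the 9 by its test. It ran from 736 to 1814 CPM in naive libraries (median 1328, mean 1387 ± 261, SD, n = 19) and from 321 to 1437 CPM at day 12 (median 819, mean 779 ± 302, SD, n = 22). The averaged log2 fold change was -0.89 (SE 0.13, edgeR adjusted p = 6.68e-08), and it was -0.84 to -0.98 when each library was left out in turn. Within the 2 collection days the change was -0.68 and -0.99, both past the threshold (edgeR adjusted p = 0.0468 and 1.2e-05).

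The fall of *Ifngr1* was seen library by library in 5 of the 6 groups of age and sex, where every day 12 library lay below every naive one; over the 6 comparisons 19.2% of genes had groups that did not overlap (15.4% and 22.6% in females and males of 3 months, 23.7% and 20.3% at 9 months, 9.58% and 23.5% at 18 months), and 1.75% of genes tested lay wholly below naive in at least 5 of the 6. In 3-month-old females the naive libraries held 1328, 1459, 1585 and 1641 CPM and the day 12 libraries 624, 827, 833 and 980 CPM. In 9-month-old females they held 1183, 1250 and 1289 CPM and then 321, 335 and 764 CPM, of which the first pair were the lowest *Ifngr1* values of the 62 libraries. In 18-month-old males they held 1278, 1486, 1507 and 1814 CPM and then 534, 587 and 852 CPM. These 3 groups passed the test on their own, with log2 fold changes of -0.88 (SE 0.28, edgeR adjusted p = 0.0432), -1.39 (SE 0.33, adjusted p = 0.00294) and -1.21 (SE 0.31, adjusted p = 0.00691). The call in 3-month-old females was lost in 8 of the 62 fits that left out 1 library (adjusted p up to 0.155), and that in 18-month-old males without day 12 replicate 1 or 2 (adjusted p up to 0.0619). In 18-month-old males the change also moved to -0.67 (adjusted p = 0.194) when the library with 2 day labels, at 1846 CPM the highest of all, was counted at day 12. In 3-month-old males (1157 to 1653 CPM naive, 594 to 955 CPM at day 12) and 9-month-old males the groups did not overlap either, though neither passed on its own. One 9-month-old male library at day 12 held 1430 CPM beside 366, 735 and 826 CPM in the others, still under the naive 1554 and 1777 CPM. Its microglia markers summed to 26820 CPM, inside the naive range, and its type I interferon targets to 595 CPM, the lowest sum at day 12. Its interferon-gamma targets summed to 16290 CPM, above the naive range.

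The group that overlapped was the 18-month-old females. Their 3 naive libraries held 736, 1165 and 1202 CPM of *Ifngr1* and their 4 day 12 libraries 483, 869, 1147 and 1437 CPM, a log2 fold change of -0.07 (95% interval -0.68 to 0.53). The upper pair, replicates 2 and 1, were the only day 12 libraries whose interferon-gamma targets lay within the naive range: the 16 targets summed to 750 and 981 CPM there, to 416 to 4146 CPM in naive libraries and to 8221 CPM or more in every other day 12 library. T cell markers summed to 13.2 and 1.57 CPM in that pair and to 220 and 383 CPM in the other day 12 females of this age. Microglia markers summed to 27240 and 31740 CPM, inside the naive range, against 13470 and 13660 CPM. Without the pair, a choice made after seeing the data, the log2 fold change of the group was -0.61 (95% interval -1.32 to 0.09, edgeR adjusted p = 0.31), and the averaged change over all groups was -0.98. Averaged without any 18-month-old female, *Ifngr1* changed by -1.05 (SE 0.14, edgeR adjusted p = 1.28e-08), and 5 of the 9 genes passed, where 35.3% of all genes did.

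**Figure D2:**
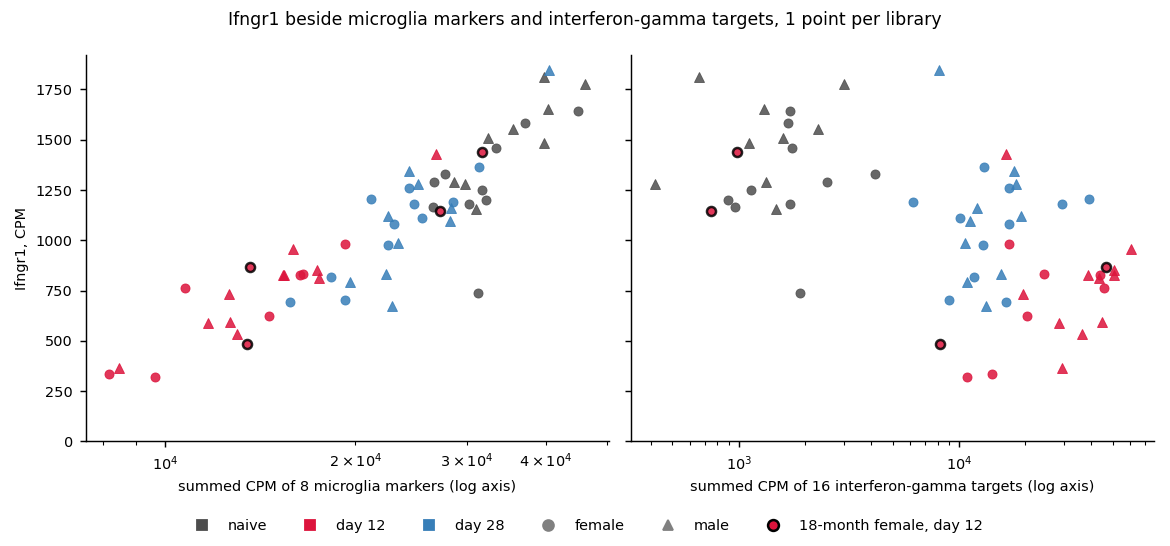
*Ifngr1* in CPM (linear axis from 0) against the summed CPM of 8 microglia markers (left, log axis) and of 16 interferon-gamma targets (right, log axis), 1 point per library, colour for day and shape for sex, with 18-month-old females at day 12 ringed in black. Many libraries low in *Ifngr1* are also low in microglia markers, but the naive 18-month-old female library at 736 CPM has a marker sum of 31320 CPM. The ringed libraries at 1147 and 1437 CPM lie among the naive ones on both axes.

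*Ifngr2* (ENSMUSG00000022965, chromosome 16, 91547072 to 91565623, plus strand), the chain that brings JAK2, moved the other way and by less. It ran from 189 to 314 CPM in naive libraries (median 275) and from 222 to 469 CPM at day 12 (median 315), so the days overlapped widely, and they overlapped in each group of age and sex. The averaged log2 fold change was 0.21 (SE 0.083, edgeR adjusted p = 0.0371), positive in 6 of 6 groups. This call was weak: it was lost when any of 9 single libraries was left out (adjusted p up to 0.0816), in either collection day alone, and without the pair of 18-month-old females described above (0.20, adjusted p = 0.0678).

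Because both chains were counted in the same library, their ratio does not depend on how libraries were scaled. It does depend on the batch correction. Before that correction the collection days differed by -0.46 for *Ifngr1* and -0.11 for *Ifngr2* on the log2 scale. Ratios of uncorrected counts are not given here. The count of *Ifngr2* was 0.188 of that of *Ifngr1* in the median naive library, 0.421 at day 12 and 0.261 at day 28. The log2 ratio rose by 1.16 at day 12 (SE 0.11) and 0.46 at day 28 (SE 0.074), higher in 6 of 6 groups of age and sex at both days. Both p-values, 1e-05 by permutation of the day within age and sex (two-sided), were the smallest that 100000 permutations can give (adjusted p = 4e-05 over 8 ratio tests).

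*Ifnar1* (ENSMUSG00000022967, chromosome 16, 91485238 to 91507441, plus strand), the TYK2-bound chain of the type I interferon receptor, rose at day 12. It ran from 18.0 to 100 CPM in naive libraries (median 43.4, mean 45.2 ± 16.4, SD, n = 19) and from 39.1 to 106 CPM at day 12 (median 70.1, mean 70.5 ± 17.4, SD, n = 22). The averaged log2 fold change was 0.69 (SE 0.12, edgeR adjusted p = 6.06e-06), between 0.62 and 0.77 when each library was left out in turn, and within the collection days it was 0.64 (adjusted p = 0.1) and 0.74 (adjusted p = 0.000149). Counts behind these values were modest, with medians of 206 naive and 281 at day 12.

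Every day 12 library lay above every naive one for *Ifnar1* in 4 of the 6 groups, as did 4.16% of genes tested in at least 4. The difference was plainest at 9 months. Females went from 18.0, 37.4 and 40.9 CPM to 77.0, 80.9 and 87.7 CPM (log2 fold change 1.35, SE 0.31, edgeR adjusted p = 0.00217), and males from 34.8 and 35.2 CPM to 58.5, 64.6, 70.5 and 106 CPM (1.09, SE 0.34, adjusted p = 0.0497). The call in males rested on 2 naive libraries and was lost in 37 of the 62 fits that left out 1 library. That in females was kept in all of them (log2 fold change 1.09 to 1.57). The naive female library at 18.0 CPM, replicate 1, was also the lowest naive one for *Ifngr2* (189 CPM), *Ifnar2* (327 CPM), *Jak1* (162 CPM) and *Jak2* (0 CPM). Its *Ifngr1*, *Tyk2*, *Il10ra* and *Il10rb* were the highest of its group. At 3 months the groups were also apart, with 44.1 to 50.2 CPM against 65.8 to 89.8 CPM in females and 31.5 to 53.7 CPM against 64.6 to 77.9 CPM in males, without passing on their own. At 18 months they overlapped in both sexes. In 18-month-old females the log2 fold change was -0.23 (95% interval -0.81 to 0.34), and it turned to 0.22 (95% interval -0.40 to 0.84) without naive replicate 1. That naive library held 100 CPM of *Ifnar1*, beside 36.0 and 58.3 CPM in the others, together with the group's lowest *Ifngr1* (736 CPM) and *Tyk2* (4.54 CPM) and its highest sum of type I interferon targets (1656 CPM).

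The promoters of the type I receptor genes are shown because both hold the GAS motif, while *Ifnar1* passed the test at day 12 and *Ifnar2* did not. The sequences are those of RefSeq on GRCm38.p6, 250 bases before to 50 bases after the start on the plus strand, at chr16:91484965-91485264 for *Ifnar1* and chr16:91372533-91372832 for *Ifnar2*, and capitals mark a match to TTCNNNGAA, which reads alike on both strands:
Ifnar1: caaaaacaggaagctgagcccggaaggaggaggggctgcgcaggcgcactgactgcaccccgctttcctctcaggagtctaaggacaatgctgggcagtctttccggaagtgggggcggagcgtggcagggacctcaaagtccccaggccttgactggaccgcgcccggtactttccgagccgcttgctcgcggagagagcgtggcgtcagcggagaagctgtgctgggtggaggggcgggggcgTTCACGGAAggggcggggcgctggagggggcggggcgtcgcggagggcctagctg
Ifnar2: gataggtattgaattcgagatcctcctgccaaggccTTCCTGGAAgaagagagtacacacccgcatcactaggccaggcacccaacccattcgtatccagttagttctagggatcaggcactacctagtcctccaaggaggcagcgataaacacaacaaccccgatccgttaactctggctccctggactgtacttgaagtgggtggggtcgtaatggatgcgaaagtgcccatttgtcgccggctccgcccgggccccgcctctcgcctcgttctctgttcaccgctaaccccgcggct
The match starts 5 bases before the start of *Ifnar1* and 214 bases before that of *Ifnar2*. Promoters of 7 of the 9 genes were at hand, not those of *Il10ra* and *Il10rb*, and no other of the 7 held this motif, which occurs in 8.3% of 32851 mouse promoters of this length. The ISRE pattern, a pair of GAAA runs with any 2 bases between them, searched on both strands, was in none of the 7 and in 3.44% of all promoters. A match is a run of letters and was not compared with any binding data.

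*Ifnar2* (ENSMUSG00000022971, chromosome 16, 91372783 to 91405589, plus strand), the JAK1-bound chain and the more abundant one, ran from 327 to 565 CPM in naive libraries (median 473) and from 226 to 580 CPM at day 12 (median 439). The days overlapped in each group, and the averaged log2 fold change was -0.07 (95% interval -0.24 to 0.09, edgeR adjusted p = 0.541). The lowest group was again the 9-month-old females, at 226, 284 and 407 CPM against 327 to 555 CPM naive. The ratio of *Ifnar2* to *Ifnar1* counts fell from 10.5 in the median naive library to 7.07 at day 12, a log2 difference of -0.77 (SE 0.15, adjusted p = 0.00052, permutation within age and sex), lower in 5 of 6 groups. At day 28 the median ratio was 9.36 and the difference -0.17 (SE 0.15, adjusted permutation p = 0.297).

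**Figure D3:**
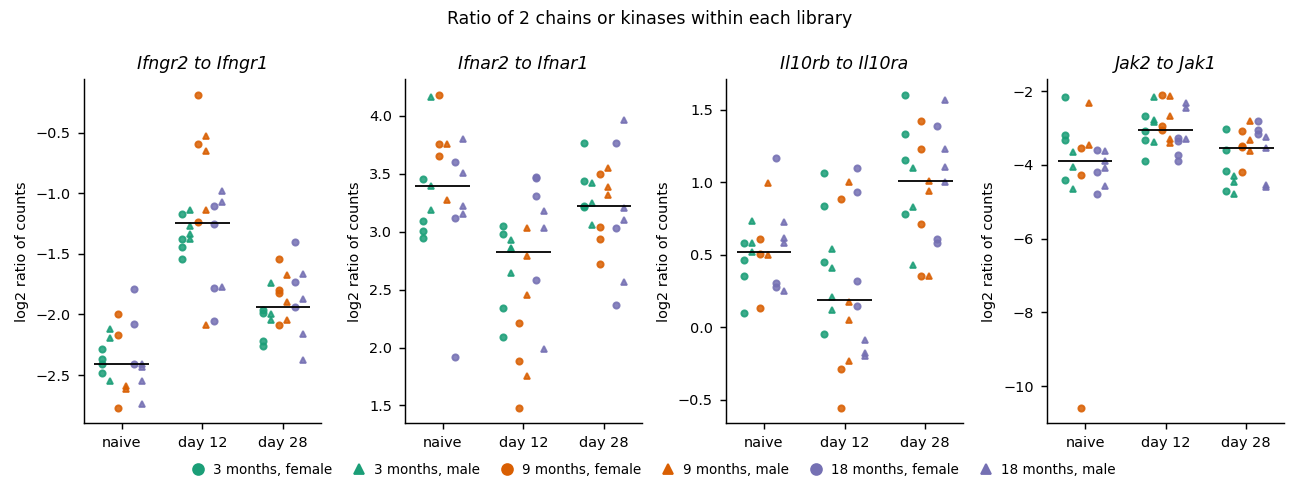
Log2 ratio of the counts of 2 genes within each library (0.5 counts added to each), naive, at day 12 and at day 28, 1 point per library, colour for age, shape for sex and a black line at the median. The *Ifngr2* to *Ifngr1* ratio rises from a median of -2.41 to -1.25 at day 12, the *Ifnar2* to *Ifnar1* ratio falls from 3.39 to 2.82, and the point at -10.6 in the last panel is the naive library with no *Jak2* count.

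The interleukin-10 receptor chains differed from each other by day. *Il10ra* (ENSMUSG00000032089, chromosome 9, 45253837 to 45269149, minus strand), the ligand-binding chain, ran from 110 to 201 CPM in naive libraries (median 154), from 131 to 386 CPM at day 12 (median 190.0) and from 99.4 to 165 CPM at day 28 (median 130). At day 12 it rose by 0.33 on the log2 scale (SE 0.096, edgeR adjusted p = 0.00515), with day 12 libraries wholly above naive ones in 9-month-old and 18-month-old males, where 14.8% of genes tested lay wholly above in at least 2 of the 6 groups. At day 28 its log2 fold change was -0.19 (95% interval -0.38 to 0.004, edgeR adjusted p = 0.2). *Il10rb* (ENSMUSG00000022969, chromosome 16, 91406164 to 91425834, plus strand) passed the test at neither day, with medians of 212, 239 and 272 CPM naive, at day 12 and at day 28. Its log2 fold changes were 0.06 (95% interval -0.16 to 0.28) and 0.23 (0.01 to 0.45, edgeR adjusted p = 0.159). Taken as a ratio within each library, *Il10rb* counts were 1.43 times those of *Il10ra* in the median naive library, 1.14 times at day 12 and 2.02 times at day 28. The rise at day 28, 0.42 on the log2 scale (SE 0.11), was seen in 6 of 6 groups (adjusted permutation p = 0.00125), and the difference at day 12, -0.27 (SE 0.13), missed the threshold (adjusted permutation p = 0.0641). In the counts before batch correction *Il10rb* differed between the collection days by -0.63 and *Ifngr1* by -0.46 on the log2 scale, the largest such differences of the 9.

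Among the kinases, the abundant *Jak1* did not pass the test at day 12 and both scarce kinases rose. *Jak1* (ENSMUSG00000028530, chromosome 4, 101152367 to 101265282, minus strand), which serves all of these receptors, ran from 162 to 286 CPM naive (median 254) and from 137 to 276 CPM at day 12 (median 236), a log2 fold change of -0.09 (95% interval -0.25 to 0.08, edgeR adjusted p = 0.446). *Jak2* (ENSMUSG00000024789, chromosome 19, 29251828 to 29313080, plus strand), the kinase of the *Ifngr2* chain, ran from 0 to 50.9 CPM naive (median 16.7) and from 15.7 to 51.5 CPM at day 12 (median 27.6). Its averaged log2 fold change was 0.72 (SE 0.22, edgeR adjusted p = 0.00682). *Tyk2* (ENSMUSG00000032175, chromosome 9, 21104068 to 21131243, minus strand), the kinase of the *Ifnar1* and *Il10rb* chains, ran from 4.54 to 26.1 CPM naive (median 16.5) and from 11.5 to 41.6 CPM at day 12 (median 23.2), with an averaged log2 fold change of 0.55 (SE 0.15, edgeR adjusted p = 0.00355).

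*Jak2* varied much between groups of age and sex at day 12, from -0.17 in 3-month-old females to 1.75 in 9-month-old females (SE 0.57, edgeR adjusted p = 0.0336), the 1 group that passed on its own. That group went from 0, 13.3 and 18.6 CPM to 27.2, 28.8 and 51.5 CPM, and without naive replicate 2 or 1, or without day 12 replicate 3, the call was lost (adjusted p up to 0.17). In the naive library at 0, replicate 1, 3 counts would be 0.634 CPM, so *Jak2* there was below the other naive libraries of the study, of which the lowest held 9.09 CPM. In 18-month-old males *Jak2* went from 10.03 to 21.8 CPM naive to 22.8, 38.6 and 49.2 CPM without overlap, and in 3-month-old females the groups overlapped, at 11.9 to 50.9 CPM naive and 15.7 to 33.6 CPM at day 12. The ratio of *Jak2* to *Jak1* counts rose from 0.0675 in the median naive library to 0.12 at day 12. The rise was 1.13 on the log2 scale (SE 0.415, adjusted permutation p = 0.00052), and 0.76 without the library at 0. The day 12 mean was higher in 6 of 6 groups, but it hardly moved in 3-month-old females (mean log2 ratio -3.268 to -3.246) and 9-month-old males (-2.891 to -2.877). *Tyk2* lay wholly above naive in females of 3 months (13.7 to 18.8 CPM against 21.5 to 33.6 CPM) and 9 months (11.1 to 24.5 CPM against 30.0 to 38.7 CPM), beside the same 14.8% of genes wholly above in at least 2 groups. Counts were low for both genes, with naive medians of 77 for *Jak2* and 69 for *Tyk2*. Within the collection days *Jak2* changed by 1.05 and 0.50, neither past the threshold (edgeR adjusted p = 0.0962 and 0.159), and *Tyk2* by 0.49 and 0.65 (adjusted p = 0.249 and 0.0113).

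**Figure D4:**
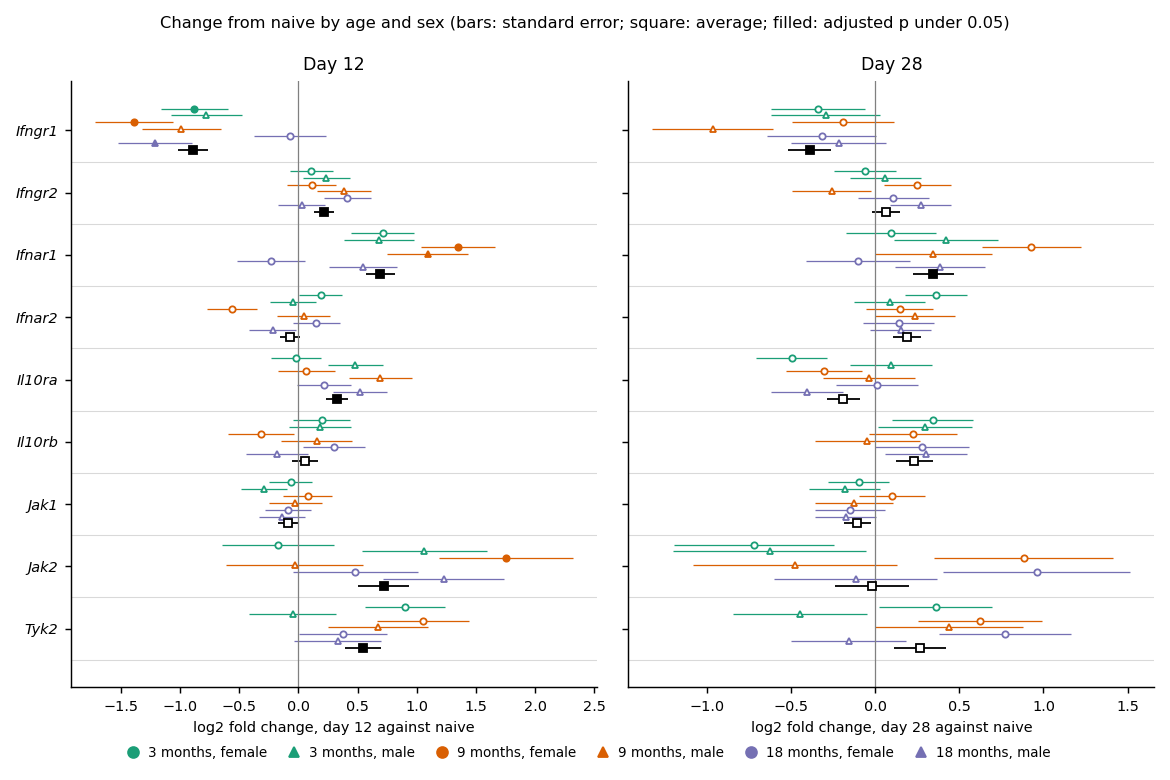
Log2 fold change from naive at day 12 (left) and day 28 (right) for each gene, with the standard error as a bar, 1 point for each age and sex and a black square for their average, filled where the edgeR adjusted p is under 0.05. At day 12 *Ifngr1* is negative in all 6 groups, near 0 only in 18-month-old females (-0.07), and at day 28 no group passes on its own.

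Group by group at day 12, 6 of the 54 pairs of a gene and a group passed, 3 for *Ifngr1*, 2 for *Ifnar1* and 1 for *Jak2*, where 7.14% of all genes and groups did. The share of all genes that passed was 7.36% and 7.21% in females and males of 3 months, 11.2% and 4.6% at 9 months, and 3.49% and 8.91% at 18 months. Each such test rests on 2 to 4 libraries a group. In simulated data, 7% of changes of 1 on the log2 scale were called in 3-month-old females alone, against 83% for the average over the groups. Only 200 of 13001 genes were changed in that simulation, whereas 1000 of 13584 genes passed in the data for 3-month-old females. Adjusted p-values are stricter when fewer genes change, so the simulated shares do not give the sensitivity in the data.

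At day 28 the estimates of both called genes were nearer to 0 than at day 12. *Ifngr1* stood at 672 to 1846 CPM (median 1113), with a log2 fold change of -0.39 (SE 0.13, edgeR adjusted p = 0.0287), negative in 6 of 6 groups. *Ifnar1* stood at 39.1 to 80.5 CPM (median 54.5), with a change of 0.35 (SE 0.12, adjusted p = 0.0444), positive in 5 of 6. Both calls were close to the threshold: between 0 and 2 of them were left when single libraries were omitted, and neither passed within a collection day. In 9-month-old males the day 28 libraries, at 672, 792 and 1094 CPM of *Ifngr1*, still lay below the naive 1554 and 1777 CPM, the 1 group of 6 without overlap (14.3% of genes over the 6 comparisons at day 28, with 8.9% and 16.3% in females and males of 3 months, 11.2% and 25.3% at 9 months, 16.0% and 7.94% at 18 months). Beside the same shares, *Ifnar1* lay wholly above naive in both sexes of 9 months, and *Jak2* and *Tyk2* in 18-month-old females. *Jak1* lay wholly below in 3-month-old males and 18-month-old females, and *Il10ra* in 18-month-old males. None of the 54 pairs of gene and group passed, where 0.941% of all did (0.788% and 0.537% in females and males of 3 months, 1.52% and 0.147% at 9 months, 1.4% and 1.25% at 18 months). Of the 54, 3 had an unadjusted p under 0.05, and DESeq2 called 1, *Ifnar1* in 9-month-old females (log2 fold change 0.93, SE 0.29, adjusted p = 0.0437), where the levels were 42.9, 64.2, 67.7 and 69.8 CPM. *Jak2* did not pass at day 28 (median 18.9 CPM, log2 fold change -0.02, 95% interval -0.46 to 0.42), with estimates from -0.72 in 3-month-old females to 0.96 in 18-month-old females, neither past the threshold.

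None of the 9 genes passed a test of a difference by sex or age. No gene differed in its change between males and females at day 12 or day 28 (0.0% of all genes did at both), nor in its change between 18 and 3 months at day 12 (0.155% of all genes) or day 28 (0.0%), at an edgeR adjusted p under 0.1, with DESeq2 giving no call among the 9 either. At an unadjusted p under 0.05 there was 1 of the 9 in each of the sex comparisons, 0 for age at day 12 and 1 for age at day 28. In naive microglia no gene differed between 18 and 3 months (0.11% of all genes did) or between the sexes (0.081%), and none of the 9 had an unadjusted p under 0.05 there. Comparing 18 with 3 months at day 12 and day 28 in each sex gave no call either, where 0.228% and 0.00368% of all genes and sexes did (0.456% in females and 0.0% in males at day 12, 0.0% and 0.00736% at day 28). Some intervals were wide: the male minus female difference in the day 12 change ran from -0.72 to 0.30 for *Ifngr1* and from -0.32 to 0.65 for *Ifnar1*. Among the comparisons by sex or by age over all groups, those with an unadjusted p under 0.05 were a greater day 12 change of *Il10ra* in males (0.47, 95% interval 0.09 to 0.86, unadjusted p = 0.016, edgeR adjusted p = 0.792), a lower day 28 change of *Tyk2* in males (-0.64, 95% interval -1.26 to -0.02, unadjusted p = 0.044, edgeR adjusted p = 0.9999) and a greater day 28 change of *Jak2* at 18 than at 3 months (1.096, 95% interval 0.05 to 2.15, unadjusted p = 0.0411, edgeR adjusted p above 0.9999). Taken in females alone, a choice made after seeing the values, the day 12 change of *Ifnar1* was lower at 18 than at 3 months by 0.95 (SE 0.39, unadjusted p = 0.019, edgeR adjusted p = 0.236, where 1.05% of all genes passed), and that of *Ifngr1* was higher by 0.81 (SE 0.42, adjusted p = 0.358). In males the same differences were -0.14 for *Ifnar1* (SE 0.41) and -0.43 for *Ifngr1* (SE 0.43), and the male minus female difference between them was -1.24 for *Ifngr1* (95% interval -2.44 to -0.04, unadjusted p = 0.0429, edgeR adjusted p = 0.872) and 0.81 for *Ifnar1* (95% interval -0.32 to 1.94, adjusted p = 0.914), where 0.0% of all genes passed.

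Of the 6 receptor genes, *Ifnar2*, *Il10rb*, *Ifnar1* and *Ifngr2* lie in this order within 192841 bases of chromosome 16, from 91372783 to 91565623 on the plus strand. They are 4 of the 5 protein-coding genes of the stretch and the 4 that were tested. At day 12 these neighbours did not move as a block, with log2 fold changes in that order of -0.07, 0.06, 0.69 and 0.21. The other protein-coding gene, *Gm21970*, overlaps both *Ifnar2* and *Il10rb* on the same strand, sharing 315 exonic bases with the first (9.92% of its exonic length) and 569 with the second (30.8%), so reads from it cannot be told apart from theirs, and it was not analysed here. Over the 18 group means the levels of *Ifnar2* and *Il10rb* had a Pearson correlation of 0.76, the highest among the 36 pairs of the 9 genes, and *Ifngr1* and *Ifnar1* had the lowest, -0.75. Group means share libraries across genes, and these correlations only describe them.

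By the same measure over 18 group means, genes whose pattern was among the most like that of *Ifngr1* were *Pigh* and *Serinc3* (r = 0.967 and 0.96). Those most like *Ifnar1* were *Ell2*, *Sema4a* and the fourth Janus kinase *Jak3* (r = 0.936, 0.931 and 0.911). Those most like *Jak2* were *Birc3*, *Kat2b* and *Mtor* (r = 0.91, 0.901 and 0.89), and those most like *Tyk2* were *Slc15a3*, *Gm6377* and *Zmat3* (r = 0.884, 0.882 and 0.842). *Ifnar2* was followed most closely by *Pon3*, *Ly86* and *Cd300c2* (r = 0.911, 0.905 and 0.895) and *Il10rb* by *Pon3*, *Cd84* and *Tmem159* (r = 0.837, 0.819 and 0.813). *Ifngr2*, *Jak1* and *Il10ra* had no gene above 0.85.

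Around the receptors, few ligands were measured and every listed target rose at day 12. Of 25 interferon and interleukin-10 family ligand genes only *Ifng* and *Ifnb1* were abundant enough to test. *Ifng*, the ligand of the *Ifngr1* chain and a product of T and natural killer cells, was above 0 in 3 of 19 naive libraries (up to 2.10 CPM), in 15 of 22 at day 12 (up to 17.2 CPM) and in 10 of 21 at day 28 (up to 44.9 CPM), and it rose at day 12 (edgeR adjusted p = 7.91e-05). The day 12 median of *Ifng*, 1.55 CPM, was near the detection floor, which ran from 0.361 to 1.57 CPM in day 12 libraries. *Ifnb1* did not pass (naive median 0.931 CPM, adjusted p = 0.326). The counts of targets are read beside the 20.2% of all genes tested that rose at day 12 and the 9.0% that rose at day 28. The target lists were chosen with earlier results of these data known, so such counts describe the listed genes and do not test them. All 16 interferon-gamma targets rose at day 12 and 15 of 16 at day 28, with *Gbp3*, a guanylate-binding protein, at a median of 10.03 CPM naive and 172 CPM at day 12. All 16 type I interferon targets rose at day 12 and 6 at day 28, as for *Oasl2* (41.01 to 210 CPM, log2 fold change 2.13, SE 0.22, adjusted p = 7.5e-12). All 6 interleukin-10 target genes rose at day 12 and 3 at day 28, among them *Bcl3* (5.09 to 21.4 CPM) and *Sbno2* (22.0 to 42.5 CPM), though *Socs3* and *Il4ra* stand in other lists too and these genes also answer to other cytokines. The median log2 change of the tested genes was 4.23 for the interferon-gamma targets, 1.82 for the type I targets and 1.33 for the interleukin-10 targets, against 0.02 over all genes.

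The STAT, inhibitor and receptor lists are read beside the 36.0% of all genes called at day 12 and the 15.5% called at day 28. They too were chosen with earlier results of these data known, and their counts are a description. Of 9 STAT and interferon-response factor genes 5 rose at day 12 and none fell: *Stat2* went from a median of 23.7 CPM to 136 CPM (log2 fold change 2.44, SE 0.22, edgeR adjusted p = 9.27e-14) and *Irf1* from 68.8 to 341 CPM, while *Stat6* and *Stat5b* were at 43.0 and 15.9 CPM naive and 47.1 and 16.3 CPM at day 12. *Jak3*, the kinase of the common gamma chain receptors, rose from 7.41 to 18.8 CPM (1.28, SE 0.25, adjusted p = 4.72e-05). Of 19 inhibitors 7 rose and 2 fell. The feedback inhibitors *Socs1* (7.33 to 38.2 CPM) and *Socs3* (4.58 to 25.2 CPM) were among those that rose, with *Usp18*, which acts at the IFNAR2 chain (72.8 to 183 CPM), and *Sh2b3*, the adaptor Lnk, fell (121 to 54.8 CPM, log2 fold change -0.97, SE 0.12, adjusted p = 1.72e-09). At day 28 3 inhibitors rose and 1 fell. Of 33 genes listed for other receptors of the Janus kinase pathway 25 were tested, 11 rose and 4 fell at day 12. Not all of the 33 encode a chain that binds a kinase. *Il2rg*, the common gamma chain, went from 58.0 to 949.9 CPM, *Il15ra* from 25.4 to 78.6 CPM and *Csf2rb* from 53.8 to 129 CPM. Of genes picked after their values were seen, as were *Usp18*, *Stat6* and *Stat5b* above, the gp130 chain *Il6st* fell from 136 to 45.0 CPM and *Il6ra* from 101 to 43.4 CPM. *Il2rb* was at 0 in all 19 naive libraries and at a median of 1.68 CPM at day 12, and it is a gene of T and natural killer cells. T cell markers rose at day 12 as given above, and natural killer markers were not listed. Median log2 changes at day 12 were 0.67, 0.27 and 0.77 for the STAT, inhibitor and receptor lists.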

How the data were processed

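RNA from sorted retinal microglia was sequenced in 64 libraries. The authors deposited whole-number counts per gene, before and after correction for the collection day: reads were aligned to mm10 with STAR 2.7.8a per the submitters' processing notes, counted with featureCounts on UCSC refGene, and adjusted with ComBat_seq. Adjusted counts are no longer reads, and whether the groups were given to that step is not stated in the sources used here. The corrected table held 63 libraries, of which 62 were used.

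Corrected counts were fitted with edgeR 4.0.16 (R 4.3.3) by the quasi-likelihood test, with TMM scaling, edgeR's filter on low counts, 1 mean for each of the 18 groups and no batch term, over 13584 genes. P-values were adjusted by Benjamini-Hochberg over all genes tested and called under 0.05 against naive and under 0.1 for ages, sexes and their interactions. CPM are counts divided by the TMM-scaled library size, times 1E6. Ratios of 2 genes, with 0.5 counts added to each, were compared between days by permuting the day within age and sex (100000 permutations, two-sided, adjusted over 8 tests, scipy 1.17.1, numpy 2.4.6, pandas 2.3.3, Python 3.11.15). Likeness is Pearson's r of mean log2 CPM (prior count 2) over groups. The fit was tested on simulated data with 200 changed genes, where the average at day 12 recovered 83% of changes of 1 and 28% of changes of 0.5 on the log2 scale.

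The 9 genes and all lists were chosen with earlier results of these data known. The text names all 9 genes, up to 3 genes of each other list with the smallest p among those called at day 12, and the 3 genes most like each of the 9. Some genes that this rule names are not reported here. Alternatives were DESeq2 1.42.0, its size factors, no filter, uncorrected counts with or without a batch term, a replicate block, only the groups compared, a test against a log2 fold change of 1 (glmTreat), each collection day alone, the left-out library, the library with 2 day labels at day 12, and each library left out. Those that left out a library kept the tested genes and dispersion trend of the full fit. After the data were seen, a model of age and sex additive with day, fits without libraries chosen by T cell markers or interferon-gamma targets, averages without 18-month-old females and the age interaction by sex were added. After batch correction 1 gene differed between the 27 and 35 libraries of the collection days, against 5486 before it. No 2 libraries of a group were identical (79 pairs). Each library is 1 retina, and per the study's methods the other eye of the mouse went to cytometry or staining, so libraries are taken as separate mice.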

Additional observations from a re-analysis of the deposited data

Results flagged for a closer look

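In 5 of the 81 sets of a gene and a group with 4 libraries, 1 library stood apart from the rest of its group, where chance gives about 1 in 20. *Ifngr1* was 702 CPM in replicate 1 of the 9-month-old females at day 28 and 1180 to 1260 CPM in the others. *Ifngr2* was 258 CPM in replicate 1 of the 3-month-old naive females (293 to 299 CPM in the others) and 218 CPM in replicate 4 of the 18-month-old naive males (271 to 279 CPM). *Tyk2* was 29.9 CPM in replicate 1 of the 3-month-old females at day 28 (16.2 to 18.2 CPM). *Il10ra* was 386 CPM in replicate 1 of the 9-month-old males at day 12 (158 to 192 CPM).

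In 3 cases every day 28 library of one group lay above its naive mean and every day 28 library of another group below its own naive mean, and these differences were not tested. No share over all genes is given for this rule, so how common such cases are is not known here. In 3-month-old males *Il10ra* met the rule narrowly, with a lowest day 28 value of 139.8 CPM and a naive mean of 139.3 CPM. Single libraries overlapped the naive ones in all of these groups except *Il10ra* in 18-month-old males. *Ifngr2* had a log2 fold change of -0.26 in 9-month-old and 0.27 in 18-month-old males. *Il10ra* had -0.50 in 3-month-old females against 0.0934 in 3-month-old males, and 0.0934 in 3-month-old males against -0.40 in 18-month-old males.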

How the results depend on the processing

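Of the 9 genes, 6 passed at day 12 on average, and this was 0 when tested against a log2 fold change of 1 (7.52% of all genes passed), 1 in the first collection day alone, and 5 to 6 when single libraries were left out. The 2 calls at day 28 became 0 against a log2 fold change of 1 (2.29% of all genes), in uncorrected counts with no batch term, in either collection day alone and in the additive model over both, and 1 without the filter on low counts, in uncorrected counts with a batch term and with the left-out library kept. They ranged from 0 to 2 when single libraries were left out. The 6 calls in single groups at day 12 became 3 in uncorrected counts, 3 with the library of 2 day labels at day 12 and 0 against a log2 fold change of 1, and ranged from 4 to 8 when single libraries were left out. At day 28 DESeq2 gave 1 such call where edgeR gave 0. Comparisons of ages and sexes kept 0 calls when any single library was left out. For settings here and below that are printed without a share of all genes, that share is not given. A call kept or lost there cannot be read as particular to these genes. The *Il10rb* to *Il10ra* ratio at day 12 ranged from -0.35 to -0.23 when single libraries were left out and passed in 6 of 62 cases.

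Some estimates near 0 changed sign. The average of *Ifnar2* at day 12 was 0.089 in the first collection day. That of *Jak2* at day 28 was 0.0914 and 0.0747 in uncorrected counts without and with a batch term, 0.61 in the first collection day, and -0.10 to 0.0938 when single libraries were left out. That of *Il10rb* at day 12 was -0.0313 in the second collection day and -0.0034 without the 2 libraries of 18-month-old females at naive interferon-gamma target levels. The cause of these changes was not tested.

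Libraries with the same replicate number did not deviate together (mean correlation -0.0114 over 464 pairs, against 0.00407 over 1348 pairs with other numbers), so the numbers do not pair them. With the replicate number as a block there were 6 calls at day 12 on average, 2 at day 28, 5 in single groups at day 12, where *Ifnar1* in 9-month-old males was lost (adjusted p = 0.0669 by edgeR), 0 in single groups at day 28, and 0 for ages and sexes.

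Without the 6 libraries highest in T cell markers there were 6 and 2 calls at day 12 and day 28. The share of all genes called in that fit is not given here. Depth limits *Jak2* and *Tyk2* most, whose counts ran from 0 to 352 and from 11 to 249.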
